A study of Mus musculus with 29 samples.

Results

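The wild-type mouse ovary was compared between embryonic day 18.5 (E18.5), shortly before birth, and postnatal day 8 (PND8). All samples titled as wild-type ovary of either age were taken, which gave 8 of the 29 samples of the series, 4 at each age. Their genotype is labelled Cdkn1b +/+, and the labels name no treatment or transgene for them. The series also covers wild-type ovaries at E13.5 and 12 weeks and ovaries labelled Cdkn1b -/-, for the gene of the cell cycle inhibitor p27Kip1, and it asked how control of the cell cycle bears on the developing ovary. RNA was sequenced from the cells of ovaries dissociated with papain, with no sort named in the labels. Each value is a mixture over the cell types present, and fewer cells of a type cannot be told apart from less RNA per cell. The labels do not say whether a sample was 1 animal or a pool, so p-values measure only the spread between these samples, which may be technical in part.

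In the fetal ovary, female germ cells enter meiosis, align their chromosomes along the synaptonemal complex, recombine them and arrest at the end of meiotic prophase around birth. Nests of germ cells then break up, many oocytes die, and each survivor is enclosed by flat pregranulosa cells as a primordial follicle. In the mouse a first wave of these follicles grows straight away: the oocyte builds its zona pellucida and stores maternal RNA and protein, pregranulosa cells become dividing granulosa cells that secrete anti-Mullerian hormone and inhibin, and Hedgehog ligands from the follicle recruit steroid-producing theca cells from the surrounding tissue.

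Values are CPM, read counts relative to the library's total after TMM scaling. Lists of 4 values follow replicates 1 to 4. A log2 fold change is PND8 minus E18.5, so a negative value is a fall. A gene "rose" or "fell" where the edgeR quasi-likelihood test gave a Benjamini-Hochberg adjusted p under 0.05 over all genes tested and the change was at least 2-fold. A smaller change under that p is called slight. SE is an approximate standard error, the size of the log2 fold change divided by the square root of that test's F statistic. Each adjusted p is from that test. Total counts were 17.3 to 20.9 M per library at E18.5 and 32.3 to 41.9 M at PND8. Replicates were far from identical, with chi-square per degree of freedom of 23.9 to 85.7 over the 12 pairs within a group.

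Some libraries stood apart from others of their age. At E18.5, haemoglobin genes took 2.70% and 3.59% of the counts in replicates 1 and 3 but 0.738% and 0.180% in replicates 2 and 4, and replicates 2 and 4 had the higher levels of many germ cell genes. At PND8, replicates 1 and 4 had the higher levels of genes of growing oocytes, and replicates 1 and 2 those of immediate early genes. Checked against the labelled tissue, germ cell Ddx4 and Dazl, pregranulosa Foxl2 and Wnt4 and stromal Pdgfra were measured in all 8 libraries. Of the markers of neighbouring tissue, Cyp11b1 of the adrenal cortex was at 0 in all 8 libraries, and Pax2 of the mesonephric ducts, Adipoq of fat and Acta1 of skeletal muscle were at most 0.269 CPM. The summed levels of the whole lists at E18.5 and PND8 were 172 to 219 CPM and 127 to 145 CPM for oviduct and mesonephric epithelium, 8.46 to 13.2 CPM and 1.82 to 5.29 CPM for the adrenal cortex and 15.4 to 39.8 CPM and 26.4 to 48.2 CPM for fat. For skeletal muscle they were 10.0 to 11.4 CPM and 3.16 to 4.61 CPM, for the fetal testis 34.0 to 57.4 CPM and 48.2 to 87.2 CPM and for nerve and glia 294 to 614 CPM and 119 to 162 CPM. Their part in the results was not tested.

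Of 17421 genes tested, 12987 (74.5%) had an adjusted p under 0.05 in the edgeR quasi-likelihood test with Benjamini-Hochberg adjustment, 37.6% higher and 36.9% lower at PND8. At least 2-fold changes were 50.6% of the genes. Of these, 4630 genes (26.6%) rose and 4180 (24.0%) fell. The values of the 2 ages did not overlap for 12330 genes (70.8%). Genes with too few counts in both groups were not tested, so a listed gene seen at 1 age only was bound to differ. These shares are the background for each count of list members that follows. Scaling decided part of the balance: 52.6% of the 2-fold calls were rises with TMM and 44.3% with total counts, which moved the median of all genes to -0.21. A correction of each library for the GC content and length of transcripts, called the offset here, gave 46.4% and moved the median to -0.11.

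**Figure D1:**
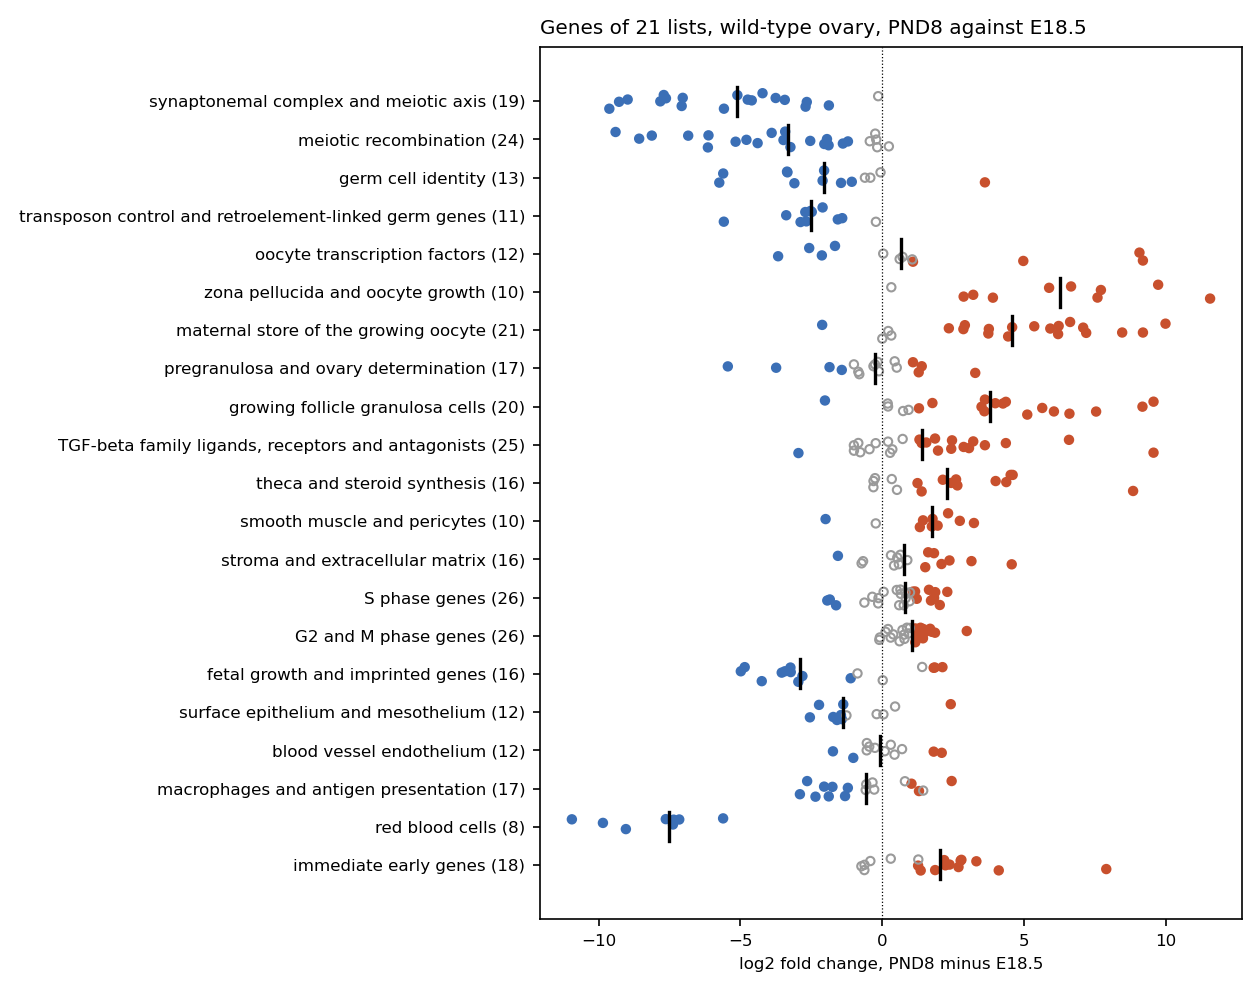
Log2 fold changes from E18.5 to PND8 (horizontal axis) of the genes in 21 lists, with the number tested after each name. Red points rose and blue points fell by at least 2-fold, grey rings did not, black bars are list medians and the dotted line is the median of all genes. The meiotic lists lie to the left, and the zona, maternal store and granulosa lists lie to the right.

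The genes of the synaptonemal complex and meiotic chromosome axis nearly all fell. Of 19 tested, 18 fell and 0 rose, against 24.0% of all genes that fell, with a median log2 fold change of -5.11 against 0.01 for all genes. Sycp1, the transverse filament of the complex (ENSMUSG00000027855, chromosome 3, 102818499 to 102936100, minus strand), measured 143, 306, 143 and 428 CPM at E18.5 and 1.44, 0.816, 0.469 and 2.44 CPM at PND8. Sycp1 had a log2 fold change of -7.62 (SE 0.60, edgeR adjusted p 2.32e-06). The 2 ages did not overlap, and replicates 2 and 4 were the highest at E18.5. Hormad1 (ENSMUSG00000028109, chromosome 3, 95559677 to 95587671, plus strand), an axis protein that marks chromosomes not yet paired, measured 71.1, 88.6, 57.9 and 82.5 CPM at E18.5 and 0.201, 0.0263, 0.0261 and 0.133 CPM at PND8. Hormad1 had a log2 fold change of -9.62 (SE 0.35, edgeR adjusted p 3.13e-08). Every PND8 library held under 1 CPM.

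Sycp3 (ENSMUSG00000020059, chromosome 10, 88459569 to 88473236, plus strand), the lateral element, measured 276, 609, 236 and 496 CPM at E18.5 and 3.62, 2.29, 0.625 and 5.84 CPM at PND8 (log2 fold change -7.03, SE 0.65). 52.2% of its exon bases lie under exons of the other strand, and the strandedness of the counting is not given, so its value is uncertain. Tex12, a part of the central element, fell (41.7 to 71.3 CPM at E18.5 and 0.0521 to 0.186 CPM at PND8). So did Syce1, another part of the central element (20.3 to 53.9 CPM at E18.5 and 0.625 to 3.13 CPM at PND8). Among the meiotic cohesins that hold the axes together, Smc1b fell (169 to 408 CPM at E18.5 and 4.40 to 16.8 CPM at PND8). Stag3 fell (13.1 to 21.4 CPM at E18.5 and 2.53 to 3.80 CPM at PND8), and Rec8 fell (62.5 to 89.8 CPM at E18.5 and 6.29 to 13.8 CPM at PND8, log2 fold change -2.70, SE 0.23). The cohesins kept at least 2 CPM in every PND8 library, while Hormad1 and Tex12 were close to 0 in every PND8 library. The split did not follow the kind of gene. Syce2, also of the central element and named here after its values were seen, fell less. Its mean was 77.5 CPM at E18.5 and 21.0 CPM at PND8 (log2 fold change -1.88, SE 0.19). Trip13, the remodeller that strips HORMAD proteins from paired axes and also acts in dividing cells, was the 1 member that did not pass the test, at 27.9 to 40.0 CPM at E18.5 and 26.9 to 33.6 CPM at PND8 (log2 fold change -0.14, SE 0.13, edgeR adjusted p 0.335).

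The starts of Hormad1 and Sycp3 are shown because both belong to the meiotic axis and hold the word CACGTG, as 6 of 16 axis genes with a sequence do. These are the 250 bases before the transcript start, plus strand, from RefSeq on GRCm38.p6, with CACGTG in capitals. RefSeq's start can lie some bases from the gene start given above:
Hormad1 chr3:95559427-95559676: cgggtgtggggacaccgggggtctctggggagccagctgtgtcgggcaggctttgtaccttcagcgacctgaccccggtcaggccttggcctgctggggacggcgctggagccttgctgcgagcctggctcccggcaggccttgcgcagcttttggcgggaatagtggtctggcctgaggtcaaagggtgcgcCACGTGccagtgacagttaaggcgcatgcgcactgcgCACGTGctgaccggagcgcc
Sycp3 chr10:88459337-88459586: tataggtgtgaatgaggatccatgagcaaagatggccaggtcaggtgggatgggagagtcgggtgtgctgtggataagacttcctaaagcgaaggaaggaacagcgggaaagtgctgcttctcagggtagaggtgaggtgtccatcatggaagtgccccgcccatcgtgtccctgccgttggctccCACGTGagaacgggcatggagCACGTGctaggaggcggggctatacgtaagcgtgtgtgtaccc
CACGTG, searched on both strands and a special case of the wider CANNTG, was found in the 250 bases before 6 of the 16 axis genes with a sequence (37.5%), 1 of 18 recombination genes (5.56%) and 1978 of all 32851 promoters of that length (6.02%). TCCCGC stood before 7 of the 16 axis genes, 8 of the 18 recombination genes and 16.9% of all promoters. Here and below, lists count 1 promoter per gene, while the count of all promoters was not reduced to 1 per gene. A match is a description of the sequence and does not show that a factor binds there.

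Of 24 meiotic recombination genes, 19 fell and 0 rose, with a median of -3.33. Spo11, the enzyme that cuts DNA to start recombination, measured 19.0, 17.3, 17.6 and 15.2 CPM at E18.5 and 0.1004, 0, 0 and 0 CPM at PND8. Its 3 counts at PND8 put E18.5 higher by a factor of 825 (95% counting interval 282 to 4005). Meiob, which coats single-stranded DNA, fell (13.9 to 21.2 CPM at E18.5 and 0 to 0.1004 CPM at PND8). Tex11, of the crossover pathway, fell (20.3 to 33.2 CPM at E18.5 and 0.287 to 1.35 CPM at PND8, log2 fold change -5.17, SE 0.44). Msh4, a crossover-stabilising protein, fell (7.67 to 9.03 CPM at E18.5 and 0.234 to 0.904 CPM at PND8). The strand-exchange protein Dmc1 fell less (5.46 to 7.69 CPM at E18.5 and 1.43 to 1.76 CPM at PND8, log2 fold change -1.95, SE 0.22, edgeR adjusted p 1.67e-05), as did Msh5 (log2 fold change -1.21, SE 0.25) and the histone methyltransferase Prdm9 that marks recombination sites (log2 fold change -2.04, SE 0.25). Mnd1, a partner in strand exchange, did not pass the test, at 8.22 to 16.6 CPM at E18.5 and 8.07 to 11.8 CPM at PND8.

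Stra8, the trigger of meiotic entry, was already at the floor before birth, with 0, 0.377, 0.247 and 0.132 CPM at E18.5 and 0 counts in all PND8 libraries. In the same retinoic acid list of 10 genes tested, 2 rose and 3 fell. Cyp26b1, which degrades retinoic acid, rose (1.83 to 2.20 CPM at E18.5 and 6.38 to 16.6 CPM at PND8), and the receptor Rxra rose (20.2 to 24.3 CPM at E18.5 and 100.3 to 115 CPM at PND8). The receptor Rarb fell (5.44 to 14.2 CPM at E18.5 and 1.24 to 2.08 CPM at PND8), and so did the retinol dehydrogenase Rdh10 (34.4 to 43.2 CPM at E18.5 and 11.7 to 14.4 CPM at PND8).

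Genes that control transposons through piRNAs fell with the meiotic genes: 10 of 11 fell and 0 rose, with a median of -2.52. Asz1, of the germ granules next to mitochondria, fell (25.5 to 44.6 CPM at E18.5 and 0.156 to 1.57 CPM at PND8). The piRNA helicase Mov10l1 fell (33.6 to 92.0 CPM at E18.5 and 1.12 to 8.95 CPM at PND8, log2 fold change -3.38, SE 0.61, edgeR adjusted p 0.000654). The Argonaute protein Piwil2 fell (22.5 to 55.6 CPM at E18.5 and 2.53 to 14.8 CPM at PND8). Gtsf1, a partner of the Argonaute proteins, did not pass the test, at 3.20, 28.4, 3.76 and 8.55 CPM at E18.5 and 11.3, 6.26, 2.37 and 17.6 CPM at PND8.

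Of 13 genes of germ cell identity tested, 9 fell and 1 rose. Dazl (ENSMUSG00000010592, chromosome 17, 50279395 to 50293636, minus strand), an RNA-binding protein of germ cells, measured 83.7, 211, 78.7 and 162 CPM at E18.5 and 3.31, 1.63, 1.56 and 4.52 CPM at PND8. Dazl had a log2 fold change of -5.61 (SE 0.48, edgeR adjusted p 3.25e-06). Replicates 2 and 4 were the highest at E18.5, replicates 1 and 4 at PND8, and the ages did not overlap. Ddx4, the germ cell RNA helicase, fell (33.8 to 56.9 CPM at E18.5 and 2.16 to 9.16 CPM at PND8, log2 fold change -3.10, SE 0.43). Kit, the receptor through which oocytes receive Kit ligand, fell (67.6 to 95.6 CPM at E18.5 and 18.3 to 57.6 CPM at PND8, log2 fold change -1.07, SE 0.34, edgeR adjusted p 0.0155). Pou5f1, the pluripotency factor that oocytes regain as they grow, was the member that rose, with 0.472, 1.184, 0.148 and 1.40 CPM at E18.5 and 12.0, 4.71, 4.17 and 19.0 CPM at PND8. Pou5f1 had a log2 fold change of 3.62 (SE 0.68, edgeR adjusted p 0.000642). Dppa3, a maternal factor, overlapped between the ages at 13.6, 162, 13.5 and 41.4 CPM and 41.1, 21.6, 15.6 and 72.9 CPM. Dazl and Ddx4 were thus lower at PND8 than at E18.5, while genes of the growing oocyte, described next, were higher. Between the PND8 libraries Dazl did not run against those genes, since both were highest in replicates 1 and 4.

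Of 12 oocyte transcription factors, 4 rose and 4 fell (33.3% each way), against 26.6% and 24.0% of all genes. Figla (ENSMUSG00000030001, chromosome 6, 86016171 to 86020996, plus strand), needed to form primordial follicles, measured 22.9, 83.8, 22.5 and 57.7 CPM at E18.5 and 3.65, 2.42, 1.59 and 7.01 CPM at PND8 (log2 fold change -3.67, SE 0.57, edgeR adjusted p 0.000227), and its ages did not overlap. Sohlh1 fell (12.9 to 61.4 CPM at E18.5 and 3.65 to 13.0 CPM at PND8, log2 fold change -2.13, SE 0.54; its ages overlapped in 1 pair of libraries) and Lhx8 (10.9 to 61.2 CPM at E18.5 and 2.42 to 8.87 CPM at PND8), both early oocyte factors. Nobox, which drives oocyte growth genes, did not pass the test, with 5.98, 43.6, 8.12 and 22.3 CPM at E18.5 and 33.2, 11.3, 7.19 and 30.3 CPM at PND8. Nobox had a log2 fold change of 0.04 (SE 0.68, edgeR adjusted p 0.965). Its values spread by over 4-fold within each age, with the highest in replicates 2 and 4 at E18.5 and 1 and 4 at PND8. Homeobox genes of the Obox family were listed at 0 in all E18.5 libraries, and at PND8 Obox1 was at least 67.3-fold and Obox5 at least 63.7-fold higher, against a floor of 3 counts over the E18.5 group. Obox genes are near-identical copies among which RSEM shares reads, so single values are uncertain. Gata4, counted in this list but also a factor of somatic gonad cells, rose (149.8 to 282 CPM at E18.5 and 446 to 531 CPM at PND8, log2 fold change 1.08, SE 0.18), and its offset value, with no call, was 0.32.

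Genes of the zona pellucida and of oocyte growth rose. Of 11 listed and 10 tested, 9 rose and 0 fell, against 26.6% of all genes that rose, with a median log2 fold change of 6.27. Zp3 (ENSMUSG00000004948, chromosome 5, 135980099 to 135988624, plus strand), the zona protein that takes part in sperm binding, measured 0, 1.24, 0 and 0 CPM at E18.5 and 93.6, 21.8, 29.8 and 101 CPM at PND8. Zp3 had a log2 fold change of 7.71 (SE 1.03, edgeR adjusted p 0.000114). Its PND8 values lay in pairs, high in replicates 1 and 4 and lower in 2 and 3. Zp2 measured 0.42, 3.07, 0.247 and 1.10 CPM at E18.5 and 188, 44.3, 41.4 and 209 CPM at PND8 (log2 fold change 6.66, SE 0.89, edgeR adjusted p 0.000113). Zp1 measured 0, 0.484, 0 and 0.0439 CPM at E18.5 and 39.0, 7.18, 9.82 and 43.8 CPM at PND8 (log2 fold change 7.59, SE 1.01). Both followed the same pairs, and the lowest PND8 library was above the highest E18.5 library for all 3 zona genes.

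The start of Zp3 is shown because the zona genes rose together and FIGLA-type factors read the E-box, CANNTG. These are its 250 bases before the start, plus strand, from RefSeq on GRCm38.p6, with the 3 E-boxes in capitals, which begin 181, 134 and 55 bases before the start:
Zp3 chr5:135979855-135980104: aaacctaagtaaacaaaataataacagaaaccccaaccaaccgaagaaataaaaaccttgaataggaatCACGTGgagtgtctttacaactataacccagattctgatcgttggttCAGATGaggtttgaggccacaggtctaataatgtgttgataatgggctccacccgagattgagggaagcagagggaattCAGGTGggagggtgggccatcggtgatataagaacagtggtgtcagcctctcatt
CANNTG, searched on both strands, stood before 6 of 8 zona and oocyte growth genes with a sequence (75%), 15 of 17 maternal store genes (88.2%) and 66.2% of all promoters of that length, so most promoters hold one. TCCCGC, frequent before the meiotic genes, stood before 0 of the 8 and 1 of the 17. It was not absent from all lists that rose. Of 17 genes of granulosa cells of growing follicles, 5 (29.4%) held TCCCGC, against 16.9% of all promoters. CACGTG stood before 3 of these 17 (17.6%), against 6.02% of all promoters.

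Gdf9, the growth factor by which oocytes act on granulosa cells, was measurable before birth and rose, with 5.77, 7.59, 8.17 and 7.98 CPM at E18.5 and 76.4, 21.8, 30.1 and 87.8 CPM at PND8. Gdf9 had a log2 fold change of 2.87 (SE 0.43, edgeR adjusted p 0.00014). Its partner Bmp15 rose (0.346 to 0.968 CPM at E18.5 and 2.24 to 8.20 CPM at PND8), and Astl, the oocyte protease that later hardens the zona, went from 0 counts at E18.5 to 20.1, 4.81, 5.32 and 23.5 CPM, at least 349.7-fold higher. The gap junction gene Gja4 was the member that did not pass the test, at 8.86 to 16.6 CPM at E18.5 and 7.76 to 21.9 CPM at PND8. Of 22 maternal store genes listed, 21 were tested. Of these, 17 rose and 1 fell, with a median of 4.58. Nlrp5 (ENSMUSG00000015721, chromosome 7, 23385889 to 23441922, plus strand), a core part of the subcortical complex that early embryos need, measured 0, 2.64, 0.0495 and 1.184 CPM at E18.5 and 101, 37.9, 44.1 and 101 CPM at PND8. Nlrp5 had a log2 fold change of 6.2 (SE 0.83, edgeR adjusted p 0.000102). Its partner Ooep rose (2.57 to 10.6 CPM at E18.5 and 23.0 to 91.9 CPM at PND8, log2 fold change 2.86, SE 0.54), and Padi6, of the cytoplasmic lattices in which the complex stores protein, rose (0.198 to 1.14 CPM at E18.5 and 91.7 to 358 CPM at PND8).

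Zar1, an early-embryo factor of maternal origin, rose (0.0495 to 0.315 CPM at E18.5 and 5.66 to 21.3 CPM at PND8, log2 fold change 6.22, SE 0.62, edgeR adjusted p 7.19e-06). Npm2, a histone chaperone of the oocyte, rose (0 to 0.297 CPM at E18.5 and 7.89 to 26.3 CPM at PND8). The meiotic maturation kinase Mos rose (0.0495 to 0.699 CPM at E18.5 and 1.64 to 6.64 CPM at PND8). Cpeb1, which controls the poly(A) tails of stored RNA, fell (33.3 to 88.4 CPM at E18.5 and 5.97 to 21.5 CPM at PND8, log2 fold change -2.12, SE 0.48, edgeR adjusted p 0.00245), the 1 member against the rest. Ybx2, which packages stored RNA, did not pass the test, with 6.56, 24.6, 8.46 and 37.3 CPM at E18.5 and 23.9, 12.3, 11.2 and 29.8 CPM at PND8. The summed level of the store genes was 148 to 225 CPM at E18.5 and 945, 337, 374 and 1060 CPM at PND8. The lowest PND8 library was thus above the highest E18.5 library, and the spread at PND8 ran with the zona genes.

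**Figure D2:**
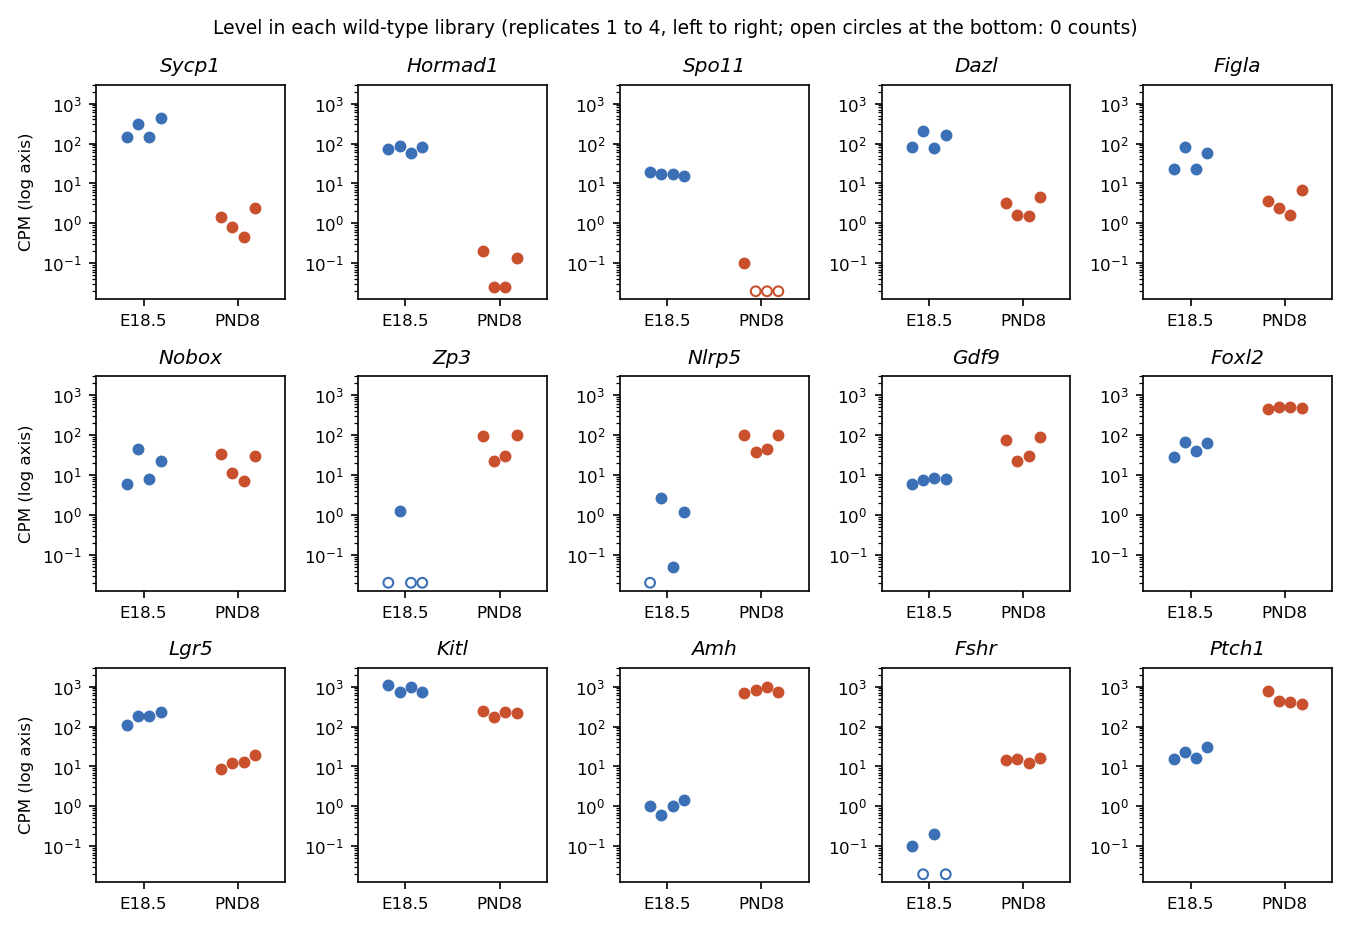
CPM on a log axis of 15 genes in each of the 4 E18.5 (blue) and 4 PND8 (red) libraries, replicates 1 to 4 from left to right, with open circles at the bottom for 0 counts. Sycp1, Hormad1, Spo11, Dazl, Figla, Lgr5 and Kitl fell with no overlap, Zp3, Nlrp5, Gdf9, Foxl2, Amh, Fshr and Ptch1 rose with no overlap, and Nobox overlapped.

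Of 17 genes of pregranulosa cells and ovary determination, 4 rose and 4 fell (23.5% each way), against 26.6% and 24.0% of all genes. Foxl2 (ENSMUSG00000050397, chromosome 9, 98955288 to 98958543, plus strand), the factor that keeps granulosa cells female, measured 27.8, 66.3, 39.4 and 62.9 CPM at E18.5 and 441, 489, 512 and 466 CPM at PND8. Foxl2 had a log2 fold change of 3.28 (SE 0.26, edgeR adjusted p 1.46e-06). All PND8 libraries were above 400 CPM and all E18.5 libraries under 70 CPM. Lgr5 (ENSMUSG00000020140, chromosome 10, 115450311 to 115587780, minus strand), a receptor for R-spondins that marks pregranulosa cells of the fetal surface and cortex, moved the other way, with 106, 188, 188 and 236 CPM at E18.5 and 8.47, 12.4, 12.9 and 19.8 CPM at PND8. Lgr5 had a log2 fold change of -3.74 (SE 0.30, edgeR adjusted p 1.8e-06). Irx3, a homeobox factor of fetal granulosa precursors, fell (77.0 to 93.5 CPM at E18.5 and 16.8 to 28.4 CPM at PND8, log2 fold change -1.86, SE 0.16), and Lhx9, of the early gonad, fell (52.5 to 108 CPM at E18.5 and 26.3 to 30.7 CPM at PND8). Wnt4, the ligand that directs the ovary fate, rose (43.9 to 75.5 CPM at E18.5 and 119 to 182 CPM at PND8, log2 fold change 1.39, SE 0.21, edgeR adjusted p 0.000159; offset value 0.42, with no call). Gng13 fell (57.3 to 114 CPM at E18.5 and 1.00 to 2.68 CPM at PND8), with 51.6% of its exon bases under exons of the other strand. Rspo1, the R-spondin of the fetal ovary, did not pass the test at 16.4 to 37.9 CPM at E18.5 and 14.9 to 33.5 CPM at PND8, and Cdkn1b rose slightly (97.8 to 125 CPM at E18.5 and 131 to 167 CPM at PND8, log2 fold change 0.44, SE 0.12, edgeR adjusted p 0.00528), a call that total-count scaling ended. With the offset, 1 gene of this list rose and 6 fell.

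Genes of the granulosa cells of growing follicles rose: 15 of 20 rose and 1 fell, with a median log2 fold change of 3.80. Amh (ENSMUSG00000035262, chromosome 10, 80805243 to 80807648, plus strand), anti-Mullerian hormone, measured 1.05, 0.592, 1.04 and 1.45 CPM at E18.5 and 699, 802, 966 and 712 CPM at PND8 (log2 fold change 9.56, SE 0.26, edgeR adjusted p 2.06e-08), with no E18.5 library near any PND8 library. Fshr (ENSMUSG00000032937, chromosome 17, 88984952 to 89200675, minus strand), the receptor for follicle-stimulating hormone, measured 0.105, 0, 0.198 and 0 CPM at E18.5 and 14.7, 15.1, 12.4 and 16.6 CPM at PND8. Fshr had a log2 fold change of 7.54 (SE 0.52, edgeR adjusted p 6.63e-07). The oestrogen receptor Esr2 rose (3.15 to 6.93 CPM at E18.5 and 145 to 216 CPM at PND8, log2 fold change 5.11, SE 0.26), as did the nuclear receptor Nr5a2 (5.19 to 10.7 CPM at E18.5 and 457 to 546 CPM at PND8). Hsd17b1, which makes oestradiol from oestrone, rose (0.682 to 1.68 CPM at E18.5 and 102 to 165 CPM at PND8). Cyp19a1, the aromatase that makes oestrogen, rose (0.148 to 0.682 CPM at E18.5 and 7.03 to 11.3 CPM at PND8). Kitl (ENSMUSG00000019966, chromosome 10, 100015630 to 100100416, plus strand), the Kit ligand of granulosa cells that wakes oocytes, fell, with 1095, 738, 965 and 736 CPM at E18.5 and 248, 176, 236 and 213 CPM at PND8 (log2 fold change -2.02, SE 0.17, edgeR adjusted p 2.32e-06), the 1 member against the rest. Ccnd2, a cyclin of dividing granulosa cells, did not pass the test at 728 to 956 CPM at E18.5 and 800.1 to 1407 CPM at PND8 (log2 fold change 0.19, SE 0.18, edgeR adjusted p 0.355), and with the offset it was lower, at -0.69.

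Among 25 genes of TGF-beta family signalling, 14 rose and 1 fell, with a median of 1.39. Amh and Gdf9, described above, are among them. Inha, the subunit shared by the inhibins, measured 87.3, 120.2, 100.3 and 110.5 CPM at E18.5 and 1215, 1245, 1460 and 1225 CPM at PND8 (log2 fold change 3.62, SE 0.14, edgeR adjusted p 3.84e-08), and the subunit Inhbb rose (11.8 to 35.1 CPM at E18.5 and 346 to 736 CPM at PND8), while Inhba overlapped at 8.34, 8.29, 6.53 and 11.5 CPM and 8.27, 6.73, 17.8 and 7.17 CPM (log2 fold change 0.20, SE 0.33, edgeR adjusted p 0.582). Of the other ligands, Tgfb1 rose (0.21 to 0.269 CPM at E18.5 and 21.7 to 28.3 CPM at PND8, log2 fold change 6.58, SE 0.21). Tgfb1 was close to 0 in every E18.5 library and is named here after its values were seen. Whether counting or preparation has a part in its low E18.5 values was not tested. Bmp6 rose (1.42 to 3.25 CPM at E18.5 and 10.5 to 15.6 CPM at PND8). Tgfb2 fell (119.6 to 178 CPM at E18.5 and 12.2 to 22.1 CPM at PND8). Among receptors, Bmpr1b rose (6.92 to 15.1 CPM at E18.5 and 56.1 to 81.1 CPM at PND8) and Bmpr2 rose (60.4 to 101 CPM at E18.5 and 245 to 403 CPM at PND8). Amhr2, the receptor of anti-Mullerian hormone, did not pass the test at 303 to 409 CPM at E18.5 and 262 to 392 CPM at PND8 (log2 fold change -0.23, SE 0.15, edgeR adjusted p 0.182), though it did with the offset, as a slight fall at -0.41. The antagonist Fst, which binds activin, fell slightly (194 to 240.5 CPM at E18.5 and 90.3 to 169.7 CPM at PND8). The offset for GC content and length lowered the median of this list to 0.58.

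Contact genes of oocyte and granulosa cells rose in 5 of 9 and fell in 1, with a median of 1.17. With the offset 3 rose and 2 fell, and the median was 0.46. Cdh2, N-cadherin, rose (43.2 to 61.8 CPM at E18.5 and 121 to 140.5 CPM at PND8, log2 fold change 1.24, SE 0.12), and Tjp1, a junction scaffold, rose (69.9 to 105 CPM at E18.5 and 325 to 373 CPM at PND8). Nectin2, an adhesion molecule, fell (244 to 305 CPM at E18.5 and 91.7 to 123 CPM at PND8). Gja1, the gap junction protein between granulosa cells, rose slightly (399.5 to 465 CPM at E18.5 and 640.4 to 786 CPM at PND8). Cdh1, E-cadherin, which germ cells carry, was highest in E18.5 replicates 2 and 4 and overlapped, at 2.25, 7.86, 2.48 and 7.28 CPM and 4.29, 2.29, 2.16 and 4.78 CPM (log2 fold change -0.56, SE 0.46, edgeR adjusted p 0.294), and the offset made it a fall at -1.30.

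In Notch signalling, by which pregranulosa cells answer ligands on germ cells, 5 of 12 genes rose and 1 fell with a median of 0.88. With the offset 2 rose and 2 fell, and the median was 0.01. The receptor Notch2 rose (45.4 to 76.4 CPM at E18.5 and 248 to 370 CPM at PND8, log2 fold change 2.34, SE 0.19, edgeR adjusted p 1.97e-06), and its offset value was 0.58. The target genes did not move as one: Hey2 rose (0.841 to 2.85 CPM at E18.5 and 41.0 to 43.9 CPM at PND8) and Heyl (21.1 to 39.9 CPM at E18.5 and 145 to 232 CPM at PND8), with offset values of 5.08 and 1.67. Hes1 fell (167 to 285 CPM at E18.5 and 33.5 to 45.1 CPM at PND8), with an offset value of -1.90. The ligand Jag1 rose slightly, with 10.8, 18.7, 10.5 and 13.1 CPM at E18.5 and 34.5, 14.3, 22.9 and 26.2 CPM at PND8 (log2 fold change 0.89, SE 0.27, edgeR adjusted p 0.0128), and this ended with the offset, at -0.04.

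Some genes of Hedgehog signalling stood in the granulosa and theca lists; no list of the whole pathway was counted. Ihh (ENSMUSG00000006538, chromosome 1, 74945315 to 74951672, minus strand), a ligand of granulosa cells, measured 0.105, 0.0538, 0 and 0.0877 CPM at E18.5 and 24.3, 45.7, 36.6 and 46.7 CPM at PND8 (log2 fold change 9.17, SE 0.41, edgeR adjusted p 6.67e-08), and the ligand Dhh rose (0.614 to 1.29 CPM at E18.5 and 35.7 to 67.0 CPM at PND8), with 25.2% of its exon bases under exons of the other strand. The receptor and target Ptch1 (ENSMUSG00000021466, chromosome 13, 63508328 to 63573598, minus strand) measured 15.6, 22.7, 16.4 and 30.5 CPM at E18.5 and 765, 432, 409.8 and 361 CPM at PND8. Ptch1 had a log2 fold change of 4.53 (SE 0.31, edgeR adjusted p 6.43e-07). The target factor Gli1 rose (1.61 to 5.75 CPM at E18.5 and 70.3 to 123 CPM at PND8, log2 fold change 4.598, SE 0.34). Hhip, an inhibitor that is itself a target, rose (0.0495 to 0.472 CPM at E18.5 and 44.5 to 132 CPM at PND8). For Ihh, Ptch1, Gli1 and Hhip the ages did not overlap.

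The list of theca and steroid synthesis genes holds Ptch1, Gli1 and Hhip, and 11 of its 16 genes rose while 0 fell. Cyp17a1, the theca enzyme for androgens, measured 3.10, 2.69, 2.87 and 1.93 CPM at E18.5 and 14.7, 61.9, 9.95 and 82.1 CPM at PND8 (log2 fold change 4.00, SE 0.69, edgeR adjusted p 0.000499). Cyp11a1, which opens steroid synthesis from cholesterol, measured 12.0, 5.38, 13.0 and 10.4 CPM at E18.5 and 44.3, 80.2, 21.8 and 109.8 CPM at PND8 (log2 fold change 2.65, SE 0.47, edgeR adjusted p 0.000567). Replicates 2 and 4 held the highest PND8 levels of both enzymes. Hsd3b1, of a family of near-identical genes, rose (120.1 to 231 CPM at E18.5 and 981 to 1214 CPM at PND8). Star, which brings cholesterol into mitochondria, overlapped at 9.28 to 26.5 CPM at E18.5 and 17.9 to 28.3 CPM at PND8 (log2 fold change 0.34, SE 0.31, edgeR adjusted p 0.343), as did Lhcgr, the receptor for luteinising hormone, at 6.80 to 17.1 CPM at E18.5 and 5.03 to 19.2 CPM at PND8. Smooth muscle and pericyte genes rose in 8 of 10 and fell in 1, among them Myh11 (14.1 to 31.0 CPM at E18.5 and 50.4 to 203 CPM at PND8, log2 fold change 2.32, SE 0.46, edgeR adjusted p 0.00109; offset value 0.97, with no call), while the pericyte marker Rgs5 fell (92.2 to 171 CPM at E18.5 and 16.6 to 49.9 CPM at PND8).

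In the stroma and extracellular matrix, 7 of 16 genes rose and 1 fell. Pdgfra, a receptor of stromal cells, rose (115 to 280.5 CPM at E18.5 and 467 to 693 CPM at PND8, log2 fold change 1.52, SE 0.24, edgeR adjusted p 0.000216), and its offset value, with no call, was 0.47. Col4a1 of basement membranes rose (54.6 to 95.3 CPM at E18.5 and 1490 to 1892 CPM at PND8), and Fbn1 of microfibrils rose (54.3 to 101 CPM at E18.5 and 608 to 1061 CPM at PND8). Tcf21, a stromal factor, rose (24.9 to 51.6 CPM at E18.5 and 113 to 199 CPM at PND8). Col1a1, a fibrillar collagen, measured 1766, 892, 1813 and 2131 CPM at E18.5 and 3400, 2346, 2224 and 2323 CPM at PND8 (log2 fold change 0.64, SE 0.26, edgeR adjusted p 0.0416), a slight rise. That call was lost without E18.5 replicate 1 (0.68) or 3 (0.70) or PND8 replicate 1 (0.52), and with the offset the value was lower, at -0.97. Dcn fell slightly (549 to 757 CPM at E18.5 and 328 to 431 CPM at PND8, log2 fold change -0.68, SE 0.14, edgeR adjusted p 0.00105; offset value -0.04, with no call), and Lum fell (227 to 279 CPM at E18.5 and 62.2 to 107 CPM at PND8), both small proteoglycans of collagen fibres.

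Genes of fetal growth and imprinted genes fell in 10 of 16 and rose in 3, with a median of -2.89. Igf2bp1, an RNA-binding protein of embryonic tissues, measured 15.7, 16.5, 13.1 and 16.8 CPM at E18.5 and 0.234, 0.289, 0.808 and 0.584 CPM at PND8. Igf2bp1 had a log2 fold change of -4.99 (SE 0.36, edgeR adjusted p 8.58e-07). Lin28b, which blocks let-7 maturation, fell (3.20 to 7.41 CPM at E18.5 and 0.0521 to 0.452 CPM at PND8, log2 fold change -4.25, SE 0.57). Igf2, a fetal growth factor, fell (292 to 516 CPM at E18.5 and 31.8 to 48.6 CPM at PND8, log2 fold change -3.23, SE 0.22), with 62.8% of its exon bases shared with a same-strand gene. H19 fell (692 to 1159 CPM at E18.5 and 75.7 to 95.4 CPM at PND8, log2 fold change -3.43, SE 0.18), and Dlk1 fell (188 to 307 CPM at E18.5 and 23.6 to 39.2 CPM at PND8, log2 fold change -2.96, SE 0.20). Cdkn1c, the imprinted cell cycle inhibitor p57, fell (356 to 966 CPM at E18.5 and 20.5 to 25.7 CPM at PND8), while its relative Cdkn1b rose slightly as given above. Hmga2, a chromatin protein of growing tissues, rose (5.35 to 11.9 CPM at E18.5 and 22.0 to 30.5 CPM at PND8, log2 fold change 1.81, SE 0.24, edgeR adjusted p 5.65e-05). The imprinted genes Plagl1 (45.1 to 68.8 CPM at E18.5 and 194 to 299.9 CPM at PND8) and Peg10 (106 to 159 CPM at E18.5 and 388 to 523 CPM at PND8) rose too.

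Genes of dividing cells rose more often than they fell. Of 26 G2 and M phase genes 13 rose and 0 fell, with a median of 1.07, and of 26 S phase genes 9 rose and 3 fell, with a median of 0.79. Mki67, the proliferation antigen, measured 97.3, 58.5, 95.2 and 66.0 CPM at E18.5 and 664, 525, 777 and 534 CPM at PND8. Mki67 had a log2 fold change of 2.98 (SE 0.21, edgeR adjusted p 7.08e-07). Mcm5, of the replicative helicase, rose (67.8 to 98.3 CPM at E18.5 and 149.5 to 186 CPM at PND8, log2 fold change 1.16, SE 0.14, edgeR adjusted p 2.55e-05). Top2a, which untangles DNA, rose (116 to 180.2 CPM at E18.5 and 473 to 547 CPM at PND8). E2f1, a factor of S phase entry, rose (7.03 to 8.98 CPM at E18.5 and 36.2 to 45.9 CPM at PND8). Ccnb1, the mitotic cyclin that oocytes also hold, overlapped at 98.9, 68.7, 86.2 and 58.4 CPM and 79.3, 94.6, 96.4 and 89.1 CPM (log2 fold change 0.20, SE 0.16, edgeR adjusted p 0.263), and the offset made it a slight rise at 0.88. Slbp, which binds histone RNA, fell (313 to 379 CPM at E18.5 and 80.4 to 93.1 CPM at PND8), and the S phase cyclin Ccne2 fell (63.1 to 99.7 CPM at E18.5 and 16.9 to 22.8 CPM at PND8). Histone genes whose RNA ends without a poly(A) tail divided, with 9 of 19 higher and 4 lower; most were under 10 CPM, and they are near-identical copies.

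Of 16 apoptosis genes of oocyte loss, 5 rose (31.2%) and 4 fell (25%), near the 26.6% and 24.0% of all genes. Bax, which opens the mitochondrial membrane, fell (83.0 to 119 CPM at E18.5 and 35.6 to 43.5 CPM at PND8). Pmaip1, the NOXA protein, fell (3.15 to 6.62 CPM at E18.5 and 0.547 to 0.77 CPM at PND8). Trp53 rose (57.8 to 72.6 CPM at E18.5 and 179.6 to 194 CPM at PND8), and among survival genes Mcl1 rose (40.4 to 56.1 CPM at E18.5 and 128 to 150.3 CPM at PND8) and Bcl2l1 fell (112 to 278 CPM at E18.5 and 58.0 to 65.7 CPM at PND8). Of 11 hormone receptor genes, 5 rose and 2 fell. The insulin receptor Insr rose (11.9 to 22.5 CPM at E18.5 and 82.1 to 114 CPM at PND8), and Igf1r rose (90.0 to 149.5 CPM at E18.5 and 423 to 558 CPM at PND8), with offset values of 1.28 and 0.44. Esr1, the oestrogen receptor of stromal and theca cells, fell slightly (86.5 to 129.8 CPM at E18.5 and 63.9 to 80.4 CPM at PND8, log2 fold change -0.52, SE 0.14, edgeR adjusted p 0.0067).

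Among other cell types, endothelial genes did not move together, with 2 of 12 higher and 2 lower. Cdh5 rose (12.4 to 64.1 CPM at E18.5 and 117 to 187 CPM at PND8, log2 fold change 2.10, SE 0.51, edgeR adjusted p 0.00403), while Pecam1 overlapped at 40.6, 66.0, 16.4 and 20.4 CPM and 41.3, 21.0, 28.0 and 62.1 CPM. Macrophage genes fell in 8 of 17 and rose in 3, and 5 did not pass the test. Their log2 fold changes ran from -2.90 to 2.45, with a median of -0.58. Among those that fell were Adgre1 (7.19 to 15.2 CPM at E18.5 and 1.90 to 4.54 CPM at PND8, log2 fold change -1.89, SE 0.34, edgeR adjusted p 0.000461) and C1qb, of complement (17.7 to 38.3 CPM at E18.5 and 1.51 to 5.71 CPM at PND8). All 8 red blood cell genes tested fell, and their summed level was 25264, 7194, 34313 and 1662 CPM at E18.5 against 7.68 to 192 CPM at PND8. The embryonic globin Hbb-y stayed at most 1.31 CPM.

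Surface epithelium and mesothelium genes fell in 7 of 12 and rose in 1. Krt19, a keratin of simple epithelia, measured 58.9, 206, 297 and 292 CPM at E18.5 and 36.5, 78.8, 60.6 and 82.0 CPM at PND8 (log2 fold change -1.73, SE 0.45, edgeR adjusted p 0.00585) and Krt7 19.4, 39.3, 52.4 and 59.6 CPM at E18.5 and 9.21, 19.3, 13.8 and 21.3 CPM at PND8 (log2 fold change -1.42, SE 0.35). The summed level of the list was 404 to 1611 CPM at E18.5 and 285 to 558 CPM at PND8. The ages overlapped for both keratins, with E18.5 replicate 1 within the PND8 range. Muc16, a mucin, rose (0.262 to 9.87 CPM at E18.5 and 17.0 to 30.04 CPM at PND8, log2 fold change 2.42, SE 0.67; offset value 1.38, with no call). Of 5 nerve and glia genes tested 3 fell and 2 rose. The summed level of the list did not overlap between the ages. Ngfr, a nerve growth factor receptor named here after its values were seen, made up most of that level in each of the 8 libraries and fell (154 to 434 CPM at E18.5 and 65.8 to 97.5 CPM at PND8). Sox10, the defining factor of glia, was at most 0.614 CPM. Sox9, a Sertoli cell factor that also marks other epithelia, fell (22.3 to 29.0 CPM at E18.5 and 4.09 to 5.62 CPM at PND8, log2 fold change -2.38, SE 0.15). Among the rarer markers, 2 of 7 tested genes of oviduct and mesonephric epithelium fell and 1 rose, 3 of 3 of the adrenal cortex and 3 of 4 of skeletal muscle fell, and 2 rose and 2 fell among 4 of fat and among 5 of the fetal testis.

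The largest rises among genes of at least 5 CPM at PND8 included the oocyte genes Khdc1a, Khdc1c and Eif4e1b, all at 0 counts in every E18.5 library and at least 223-fold, 290.5-fold and 235-fold higher at PND8. Nlrp14 measured 0.105, 0.108, 0 and 0.0877 CPM and then 129.7, 34.8, 33.2 and 122 CPM. The sodium-proton exchanger Slc9a3 rose (0 to 0.175 CPM at E18.5 and 17.4 to 56.7 CPM at PND8), and Ccl21a, a chemokine of lymphatic vessels with near-identical copies, was at least 537-fold higher. They also included genes whose counting is in doubt: Zbed6, which lies wholly within exons of a same-strand gene, was at 0 counts in all E18.5 libraries and at 21.7, 20.0, 22.2 and 17.9 CPM at PND8. The histone gene Hist1h2ao was at least 1653-fold higher, and the pseudogene Cbx3-ps6, with 96.4% of its bases under exons of the other strand, was at 1 count at E18.5 and at 29.9, 31.0, 39.9 and 27.4 CPM at PND8 (ratio 2598, 95% counting interval 466 to 102653). Mir6236 was at 3 counts at E18.5 and at 18.6, 27.6, 50.7 and 32.9 CPM at PND8 (ratio 894, 95% counting interval 306 to 4337).

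The largest falls included genes of germ cells. Tex101, a germ cell surface protein, measured 39.2, 55.3, 41.1 and 39.1 CPM at E18.5 and 0 counts in every PND8 library, at least 2079-fold lower. Tktl1, a transketolase-like gene, measured 36.0, 57.1, 29.7 and 35.0 CPM and then 0, 0.0263, 0 and 0.0531 CPM (ratio 1870, 95% counting interval 639 to 9072). Ccnb3, a cyclin of meiosis, measured 42.1, 44.4, 35.6 and 56.3 CPM and then 0.0335, 0, 0 and 0.186 CPM. Taf7l, a germ cell TFIID subunit, measured 53.3, 114, 47.0 and 89.2 CPM and then 0.1004, 0.105, 0.234 and 0.133 CPM. Dmrtc2, with 8.03, 16.9, 8.36 and 14.5 CPM at E18.5, was at 1 count over the PND8 group (ratio 1725, 95% counting interval 309 to 68215). Reg2, with 9.44, 10.6, 7.03 and 10.7 CPM at E18.5, was at 1 count as well (ratio 1361, 95% counting interval 244 to 53839). The red cell genes Slc4a1 and Hba-a1 were also among the 12, with Hormad1, Spo11 and Syce3.

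Several measures of the libraries themselves also separated the ages. Ribosomal RNA genes took 0.0669% to 0.120% of counts at E18.5 and 0.788% to 1.63% at PND8, processed pseudogenes 0.633% to 0.978% and 1.51% to 1.94%, and ribosomal protein genes 2.10% to 3.29% and 4.28% to 5.42%. Antisense genes took 0.180% to 0.248% and 0.108% to 0.119%. Each of these differed without overlap, at the smallest p that 4 against 4 allows (two-sided exact permutation test, p 0.02857, Benjamini-Hochberg adjusted 0.0381 over 12 measures). Mitochondrial genes did not pass that test, at 1.67%, 3.57%, 1.71% and 3.77% and then 1.39%, 1.86%, 1.49% and 0.683% (exact permutation p 0.08571). At the other wild-type ages, ribosomal RNA genes took 0.0488% to 0.121% of counts at E13.5 and 0.212% to 1.34% at 12 weeks. Antisense genes took 0.181% to 0.223% and 0.1005% to 0.121%, and totals were 14.1 to 21.9 M and 31.5 to 35.0 M. Ribosomal protein genes overlapped there, at 2.84% to 3.87% and 3.49% to 4.34%. Those ages were not tested. Sequencing depth, age and any difference in how the fetal and postnatal ovaries were prepared moved together here, and they cannot be told apart. The headers of the count table name a folder of 2 combined projects without saying which libraries came from which, so a batch between the ages cannot be told apart from age either.

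**Figure D3:**
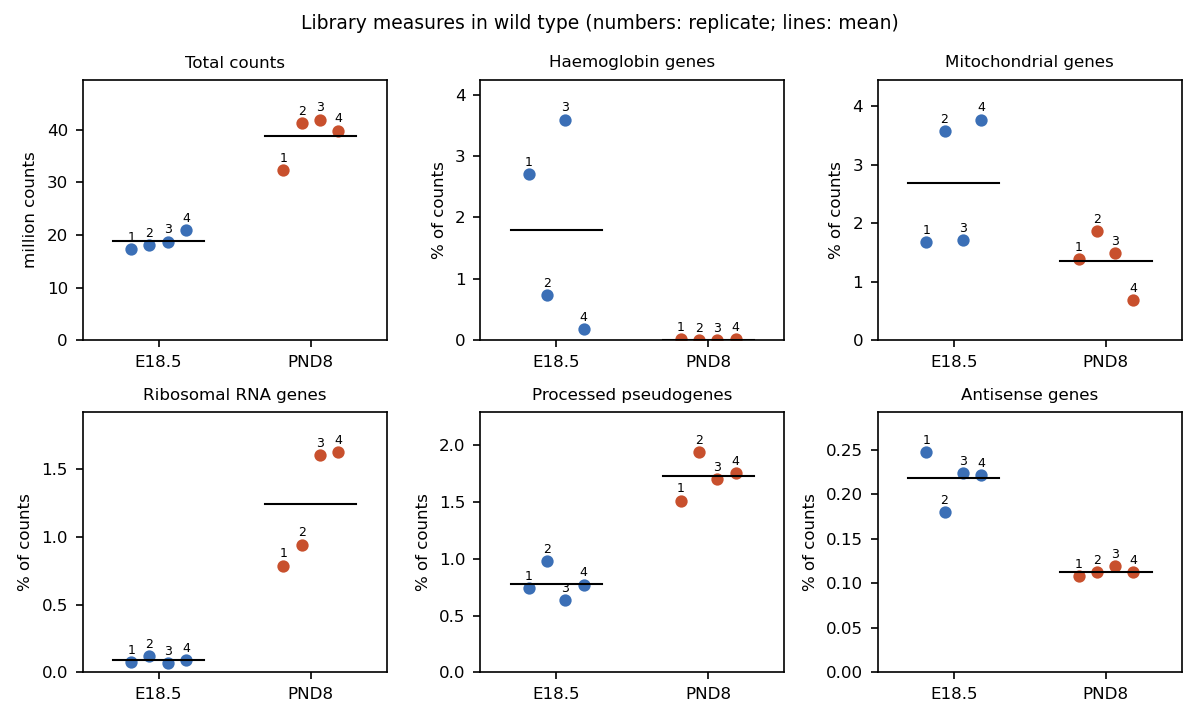
Measures of the 4 E18.5 (blue) and 4 PND8 (red) libraries, each point numbered by replicate with the group mean as a line: total counts (M) and the share of counts, in percent, from 5 kinds of gene. Ribosomal RNA, processed pseudogene and antisense shares do not overlap between the ages, haemoglobin is high in E18.5 replicates 1 and 3, and mitochondrial shares overlap.

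Changes also ran with the length and GC content of the transcript. Over 14822 protein-coding genes in 10 bins, the median log2 fold change went from -0.89 in the shortest bin to 1.15 in the longest. By GC content it went from -0.71 in the lowest bin to 0.63 in the highest. With the offset, the medians ran between -0.455 and 0.063 by length and between -0.185 and -0.065 by GC content. The meiotic, zona, maternal and granulosa medians kept their direction with the offset, at -4.24, 7.16, 5.25 and 3.55. Immediate early genes, which respond within minutes to many stimuli, rose in 12 of 18 and fell in 0, with summed levels of 716 to 843 CPM at E18.5 and 4386, 3040, 1154 and 794 CPM at PND8. Fos measured 25.1, 32.9, 9.80 and 8.24 CPM at E18.5 and 769, 465, 52.5 and 20.6 CPM at PND8 (log2 fold change 4.11, SE 1.11, edgeR adjusted p 0.00804). Jun measured 269.9, 194, 213 and 251 CPM at E18.5 and 1043, 739.9, 404 and 190.3 CPM at PND8 (log2 fold change 1.36, SE 0.42, edgeR adjusted p 0.0142). PND8 replicates 1 and 2 were the highest for both. Replicate 4 lay within the E18.5 range for Fos and below it for Jun, and both calls were lost without the E18.5 libraries highest in haemoglobin, replicates 1 and 3. The heat shock gene Hspa1a, with a near-identical neighbour, measured 23.9, 24.1, 17.9 and 24.9 CPM at E18.5 and 61.3, 32.9, 87.4 and 17.9 CPM at PND8. Common reference genes moved too. Gapdh rose (65.9 to 122 CPM at E18.5 and 256 to 342 CPM at PND8) and Polr2a rose (95.1 to 126 CPM at E18.5 and 349 to 483 CPM at PND8). Hprt fell (110.1 to 166 CPM at E18.5 and 47.6 to 57.3 CPM at PND8), and Actb overlapped at 1839 to 2355 CPM at E18.5 and 1797 to 2066 CPM at PND8 (log2 fold change -0.09, SE 0.13, edgeR adjusted p 0.539; a slight fall with total counts). Whether preparation has a part in any of these results was not tested.

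**Figure D4:**
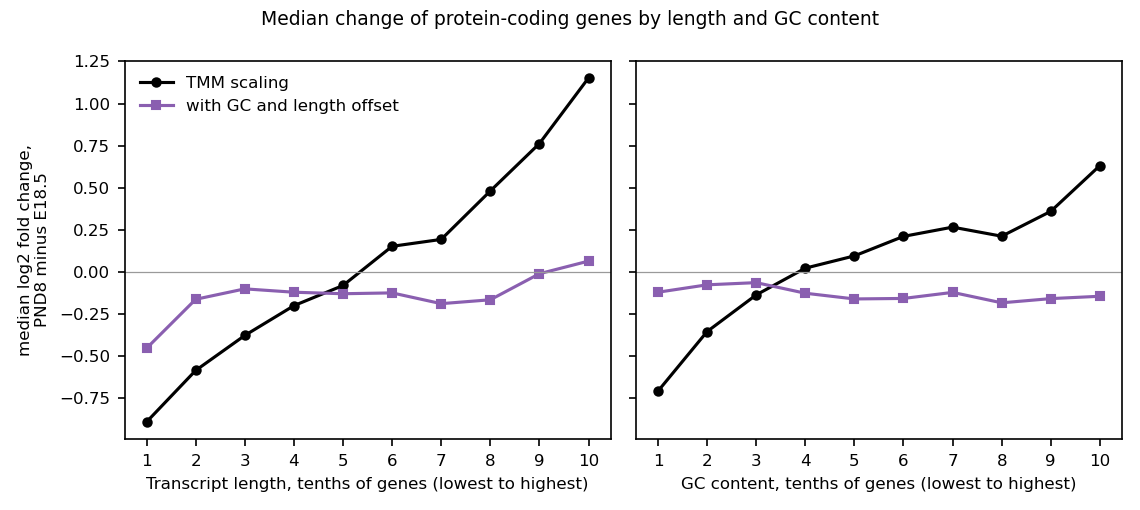
Median log2 fold change, PND8 minus E18.5 (vertical axis), of protein-coding genes in 10 bins of transcript length (left) and GC content (right), lowest to highest. Black circles, with TMM scaling, climb from -0.89 to 1.15 with length and from -0.71 to 0.63 with GC content, and purple squares, with the offset, stay nearer to 0.

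Some genes chosen after their values were seen stood apart from their neighbours. AY036118, a non-coding gene whose bases lie wholly under other exons, was at 0 counts in all E18.5 libraries and at 765, 1342, 4035 and 3130 CPM at PND8. Xist, the RNA that silences an X chromosome, rose (34.0 to 56.6 CPM at E18.5 and 385 to 445 CPM at PND8) while Tsix, its antisense partner, fell (12.8 to 15.7 CPM at E18.5 and 0 to 0.184 CPM at PND8); without strand their reads cannot be told apart where they overlap. Ccdc152 fell (9.60 to 22.5 CPM at E18.5 and 0.0263 to 0.1004 CPM at PND8) and Selenop, on the opposite strand of the same locus, changed slightly (270.4 to 347 CPM at E18.5 and 131 to 231 CPM at PND8). Malat1, a nuclear RNA, fell (2193 to 3291 CPM at E18.5 and 354 to 844 CPM at PND8).

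Set within the 4 wild-type ages, with CPM over 16 libraries and 4 libraries an age, the 2 ages bracket different turns. Mean Sycp3 was 12.6 CPM at E13.5 and 391 CPM, its peak, at E18.5. After birth it was 3.07 CPM (PND8) and 0.0078 CPM (12 weeks). Stra8 was 7.49 CPM at E13.5 and 0.183 at E18.5. Zp3 had its highest mean at PND8, 61.1 CPM, with 0.298 before and 4.70 at 12 weeks. Amh was 795 CPM at PND8 and 718 CPM (SD 299.5) at 12 weeks, within the spread of the 12-week libraries. Foxl2 had means of 9.38, 47.5 and 477 CPM up to PND8, and was 346 CPM at 12 weeks. Lgr5 peaked at E18.5, with means of 46.8, 174, 13.4 and 19.7 CPM. These levels are a description, with no test of the other ages.

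**Figure D5:**
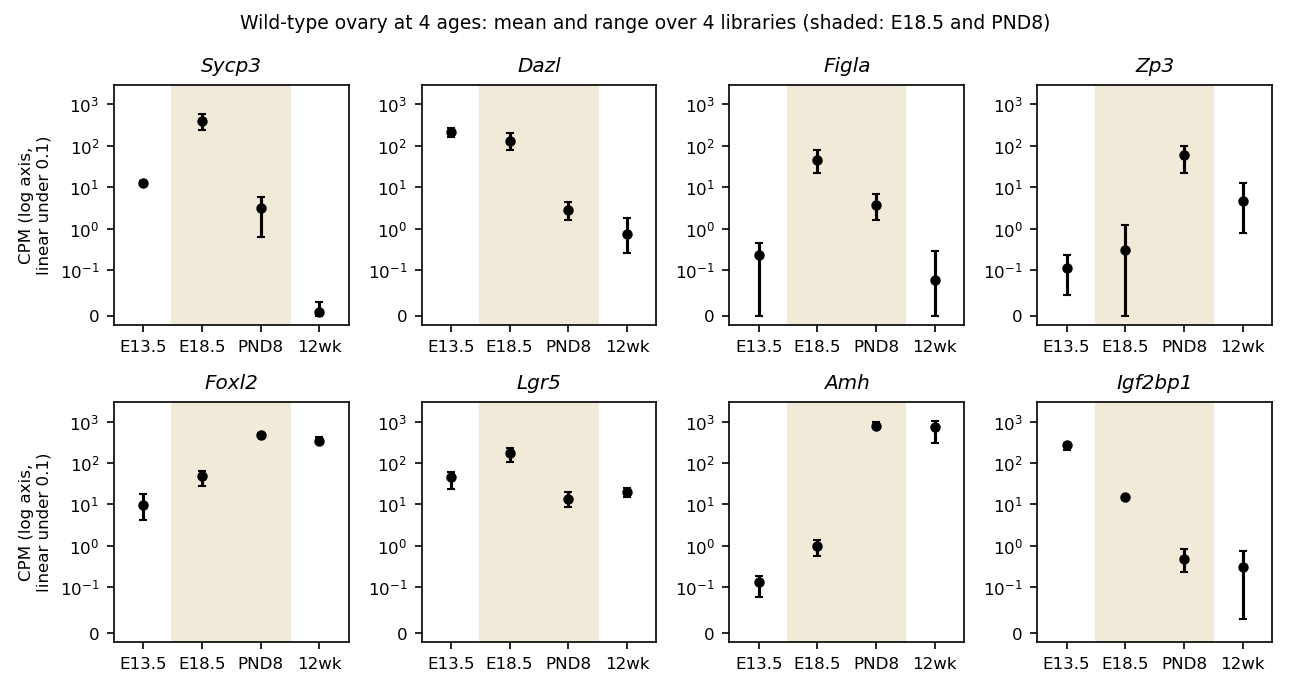
Mean CPM (points) and range (bars) of 8 genes over 4 wild-type libraries at each of 4 ages, on an axis that is logarithmic above 0.1, with E18.5 and PND8 shaded. Sycp3, Figla and Lgr5 are highest at E18.5, Zp3 at PND8, and Dazl and Igf2bp1 at E13.5.

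The same step was measured in the libraries labelled Cdkn1b -/-, called null here after that label, 4 at E18.5 and 3 at PND8. The gene itself goes against the label in part. Cdkn1b measured 9.33 to 15.8 CPM at E18.5 and 64.7 to 77.9 CPM at PND8 in the libraries labelled null, against 96.9 to 124 and 134 to 170 CPM in wild type, with CPM scaled over these libraries. Its step was larger in the libraries labelled null (interaction 2.01, edgeR adjusted p 0.000788). The labels do not say which part of the gene was deleted, and reads outside that part would check nothing. Of the 8810 wild-type genes that rose or fell, 8460 were tested in the libraries labelled null. Of those, 8407 (99.4%) had a log2 fold change of the same sign. Over all genes tested there, 28.2% rose and 23.9% fell. These libraries also differed between the ages, with ribosomal RNA genes at 0.0762% to 0.0899% of counts at E18.5 and 0.340% to 2.30% at PND8. Their totals were 17.6 to 22.8 M and 34.5 to 48.2 M counts, while mitochondrial shares overlapped at 0.506% to 2.42% and 0.603% to 1.74%. The shared sign thus cannot tell age apart from depth or preparation, whose part was not tested. In a joint fit of the 15 libraries, the step differed between genotypes for 157 of 18688 genes (0.840%; 2559 at an unadjusted p under 0.05), 41 with the higher and 116 with the lower log2 change in the libraries labelled null (edgeR quasi-likelihood interaction, Benjamini-Hochberg). The count was 47 without the library labelled null PND8 replicate 3, 402 without wild-type E18.5 replicate 2 and 580 with DESeq2. Amh, Zp3, Sycp3 and Foxl2 were not called: the interaction was -0.27 for Amh (edgeR adjusted p 0.753), 0.74 for Zp3 (0.884), 0.26 for Sycp3 (0.917) and 0.06 for Foxl2 (0.958).

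Cell cycle genes made up 30 of the 33 list genes called, 15 of 26 S phase and 15 of 26 G2 and M phase genes, and all 30 had the lower step in the libraries labelled null. Other settings called 6 to 21 and 7 to 19 of them, the fewest without null PND8 replicate 3. The S phase count was 10 or fewer without any 1 of null E18.5 replicates 3 and 4, the null PND8 libraries, wild-type E18.5 replicate 3 and wild-type PND8 replicates 2, 3 and 4. Cdc20, which starts anaphase, measured 37.9 to 47.3 CPM in wild type and 113 to 135.3 CPM in the libraries labelled null at E18.5, and 96.0 to 142 and 113 to 128 CPM at PND8 (interaction -1.52, edgeR adjusted p 0.00105). The genotypes were thus apart before birth and overlapped after it. Ccnb1 had an interaction of -1.26 (edgeR adjusted p 0.013). Mki67 had none called (-0.38, edgeR adjusted p 0.614).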

How the data were processed

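RNA of dissociated mouse ovaries was sequenced in 29 samples, of which 8 were compared here, grouped by the age and genotype in their labels. The authors deposited 1 table of RSEM expected counts per gene, per the file headers, for 51912 gene IDs. The submitters' processing notes name Trim Galore, FastQC 0.11.5, STAR 2.5.2 and RSEM 1.3.0, and the genome build and the strandedness of the counting are not given in the sources used here. Of the values above 0, 31.4% were not whole (tolerance 1e-9), since RSEM shares reads between genes, and all were rounded. Symbols and positions came from GENCODE M21 for 51719 IDs, on GRCm38, and promoter sequences from RefSeq GRCm38.p6.

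Genes were kept with edgeR's filterByExpr (minimum count 10, minimum total 15), scaled with TMM and tested with edgeR 4.0.16 (R 4.3.3) by the robust quasi-likelihood test, PND8 against E18.5, with Benjamini-Hochberg adjustment over all genes tested. The same test on 15 libraries gave the interaction of age and Cdkn1b genotype. The fits were checked on simulated data. Library measures were compared with two-sided exact permutation tests, which for 4 against 4 cannot go below 0.02857. Library totals of 17.3 to 41.9 M counts limit precision for genes of few counts, and intervals of ratios and floors of 3 counts cover counting error only.

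Genes were named by rule: a fixed list of anchors, the 12 largest rises and 12 largest falls with at least 5 CPM in the higher group and no overlap, members against the direction of their list, and the smallest interaction p-values; other list members were chosen after their values were seen, and some genes are not reported here. The comparison and the gene lists were chosen with earlier results of these data known. Alternatives were RLE scaling, total counts, no filter, DESeq2 1.42.0, limma-voom 3.58.1 with sample weights, thinned counts, all 8 groups in 1 fit, a replicate block, an offset for GC content and length, and leaving out each library. Keeping only genes that share no exon base, leaving out the 2 E18.5 libraries highest in haemoglobin, and leaving out haemoglobin and mitochondrial genes were chosen after seeing the data.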

Additional observations from a re-analysis of the deposited data

Results flagged for a closer look

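Some single libraries stood far from the other 3 of their age by Dixon's test, which marks about 1 in 20 groups by chance. Here 13 of 271 groups tested were marked, with groups under a mean of 1 CPM left out. At PND8, replicate 3 held 1460 CPM of Inha (1215 to 1245 in the others), 17.8 CPM of Inhba (6.73 to 8.27) and 327.8 CPM of Dcn (427 to 431), and replicate 1 held 3400 CPM of Col1a1 (2224 to 2346). At E18.5, replicate 1 held 98.3 CPM of Mcm5 (67.9 to 70.9), 159 CPM of Peg10 (106 to 112) and 99.7 CPM of Ccne2 (63.1 to 67.7). Replicate 3 of that age held 12.6 CPM of Cd74 (3.20 to 4.63) and 17.9 CPM of Hspa1a (23.9 to 24.9), replicate 2 held 55.3 CPM of Tex101 (39.1 to 41.1), and replicate 4 held 0.833 CPM of S100b (1.10 to 1.14). The 10 highest genes took 6.82% of counts in E18.5 replicate 3 (5.99% to 6.05% in the others), and the listed histone genes took 0.0069% in PND8 replicate 4 (0.00756% to 0.00764%).

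The step from E18.5 to PND8 differed between libraries labelled Cdkn1b-null and wild-type libraries, by the edgeR quasi-likelihood interaction with Benjamini-Hochberg adjustment, for 6 named genes. The difference in log2 change, null minus wild type, was 2.01 for Cdkn1b, -1.52 for Cdc20, -1.72 for Tnni3 (adjusted p 0.00143), -1.29 for Racgap1 (adjusted p 0.00799), -1.26 for Ccnb1 and -0.86 for Mcm5 (adjusted p 0.0475). The Mcm5 call was lost in 18 of 25 alternatives and the Ccnb1 call in 1 of 25. Tnni3, a cardiac-type troponin, rose by 2.88 in wild type and by 1.16 in the libraries labelled null.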

How the results depend on the processing

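The count of genes called stayed within 1.5 times 12987 in every fit of all genes, from 11830 (GC and length offset with replicate block) to 14835 (no filter). Among the genes sharing no exon base it was 8299, and 5702 at 2-fold. Fewer genes were tested there, 11006. A stable count does not mean the same genes. Of the 8810 genes called at 2-fold, 6043 were also called at 2-fold with the GC and length offset. With the offset and the replicate block, 5967 were. The interaction called 157 genes, against 580 with DESeq2, 449 with limma-voom, 67 with all 8 groups in 1 fit, 94 with the replicate block, 93 with the GC and length offset with the replicate block, and 47 (without PND8 replicate 3 labelled Cdkn1b-null) to 402 (without wild-type E18.5 replicate 2) when 1 library was left out; the cause was not tested. Same-numbered libraries did not deviate together from their age means (r -0.04, -0.085, 0.045 and -0.051). These deviations include differences seen at 1 age only, such as haemoglobin at E18.5, so they cannot exclude that same numbers share a preparation step. The replicate block gave 12509 calls, 8705 at 2-fold. Medians of some lists changed sign: histones to -0.03 with thinned counts, fat cells to -1.07 with all 8 groups and -1.10 with no filter, fetal testis to 0.445, 0.417 and, without the E18.5 libraries highest in haemoglobin, 0.638, and, with the offset without and with the block, reference genes to 0.202 and 0.208 and hormone receptors to -0.124 in both. The same 2 fits reversed Ccnd2 (-0.69, -0.72), Col1a1 (-0.97, -0.94) and Jag1 (-0.039, -0.041), and the latter Hist1h2bc (0.009). Library measures compared 3 against 4 cannot reach an exact permutation p of 0.05. Of the values of named genes under the alternatives, 2874 kept their direction and call, 78 lost the call, 25 gained one and 7 changed sign.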
